A study of Saccharomyces cerevisiae with 6 samples.

Results

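The proteasome genes of budding yeast (Saccharomyces cerevisiae) and RPN4, the gene of their transcriptional activator, were followed across 6 microarrays. Members were the genes whose platform symbol is PRE, PUP, RPN or RPT followed by a number, plus SCL1. This rule found 34 of the 5449 measured genes, each with 1 probe set. They comprise 14 genes of the core particle, 10 of the base, 8 of the lid, RPN4 and RPN14. RPN14 encodes a chaperone that helps assemble the base, so it is a member by name but not a subunit of the finished enzyme. RPN4 likewise carries a subunit's name but encodes a transcription factor. The remaining lid subunit, SEM1, has another name and is described apart.

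Cultures of gcn4-delta cells (S288C, MATa) at 0.1 mM aminotriazole (3AT) were set against wild-type S288C MATa cells at 10 mM 3AT. Each strain has 3 arrays. 3AT inhibits the histidine enzyme encoded by HIS3, and GCN4 encodes the activator of amino acid biosynthesis genes. All cultures grew in YNB medium in aerobic chemostats where glucose supply limited growth. The dilution rate was 0.10 per hour, at 30 °C and pH 5. Strain and 3AT concentration differ together, so their effects cannot be told apart. The labels do not state whether the replicates are separate chemostats or whether the deletion is 1 clone. The p-values therefore cover the spread among these arrays, and that spread may be technical. Each array measured RNA of a whole culture, so fewer cells carrying a transcript and less transcript per cell cannot be told apart.

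The proteasome degrades proteins that carry ubiquitin. Its barrel-shaped core is built of outer alpha rings, which gate the entrance, and inner beta rings, which hold the protease sites. A base with a ring of ATPases unfolds the substrate and feeds it into the core, and a lid removes the ubiquitin chain. Rpn4 binds a shared element upstream of most subunit genes. It is itself a very short-lived substrate of the proteasome, so that lost proteasome activity raises Rpn4 and, through it, subunit synthesis.

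GCN4 read 14.5, 213 and 11.4 on gcn4-delta replicates 1, 2 and 3, against 7312, 7309 and 7248 on wild-type replicates 1, 2 and 3. The background level, taken from probe sets of other genes on the same array, lay between 17.9 and 25.2, so GCN4 was above it on 1 of the 3 gcn4-delta arrays. The 6 measured MATa markers read 290.0 to 3713 and the 4 MATα markers 30.5 to 379, so both sets were above background. The median intensity of S. cerevisiae probe sets was 665 to 712 per array. All proteasome members were well above background, with RPN14 the dimmest at 404 to 479 and the other 33 between 912 and 3798. Wild type replicate 1 was the highest of the 6 arrays for 21 of the 34 proteasome genes, against 31.0% of all genes. It was the lowest for 4 of the 34, against 24.6% of all genes, so it was often at an extreme outside the proteasome genes too. The medians of the gene groups, and the changes of named genes that it moved by over 1.5 times, are therefore given with and without it.

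No proteasome gene passed the test of gcn4-delta against the wild type. With limma and Benjamini-Hochberg adjustment over all S. cerevisiae probe sets, 0 of the 34 had an adjusted p under 0.05, against 11.3% of all genes. At an unadjusted p under 0.05, 9 members were lower in gcn4-delta (12.3% of all genes) and 0 were higher (16.4% of all genes). The fitted changes were small. They ran from -0.46 to 0.19 on the log2 scale, with a median of -0.13, and the median over all genes was 0.035. Values below 0 were fitted for 28 of the 34 members and for 44.3% of all genes. A change over 0.5 in size, a limit chosen after the values were seen, was fitted for 0 members and for 13.5% of all genes. The 95% intervals of the members, each taken singly, lay between -0.80 and 0.39, so every one excluded a 2-fold difference in either direction. With array weights in the fit 6 members were lower, against 11.3% of all genes, and RPT2 was lower under 4 other alternatives.

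On 11 members the 3 gcn4-delta arrays all read below the 3 wild-type arrays, against 14.6% of all genes. On 2 members, PRE10 and RPN10, they all read above, against 21.1% of all genes. The remaining 21 members overlapped. Without wild type replicate 1 the median of the 34 was -0.081, against 0.051 over all genes. Values were then below 0 for 26 of the 34, against 2263 of all 5449 genes. Of the 34, 0 were called by limma, while 13.1% of all genes were. The number with gcn4-delta arrays all below was again 11, against 17.6% of all genes, and the number all above was again 2, against 29.5%.

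**Figure D1:**
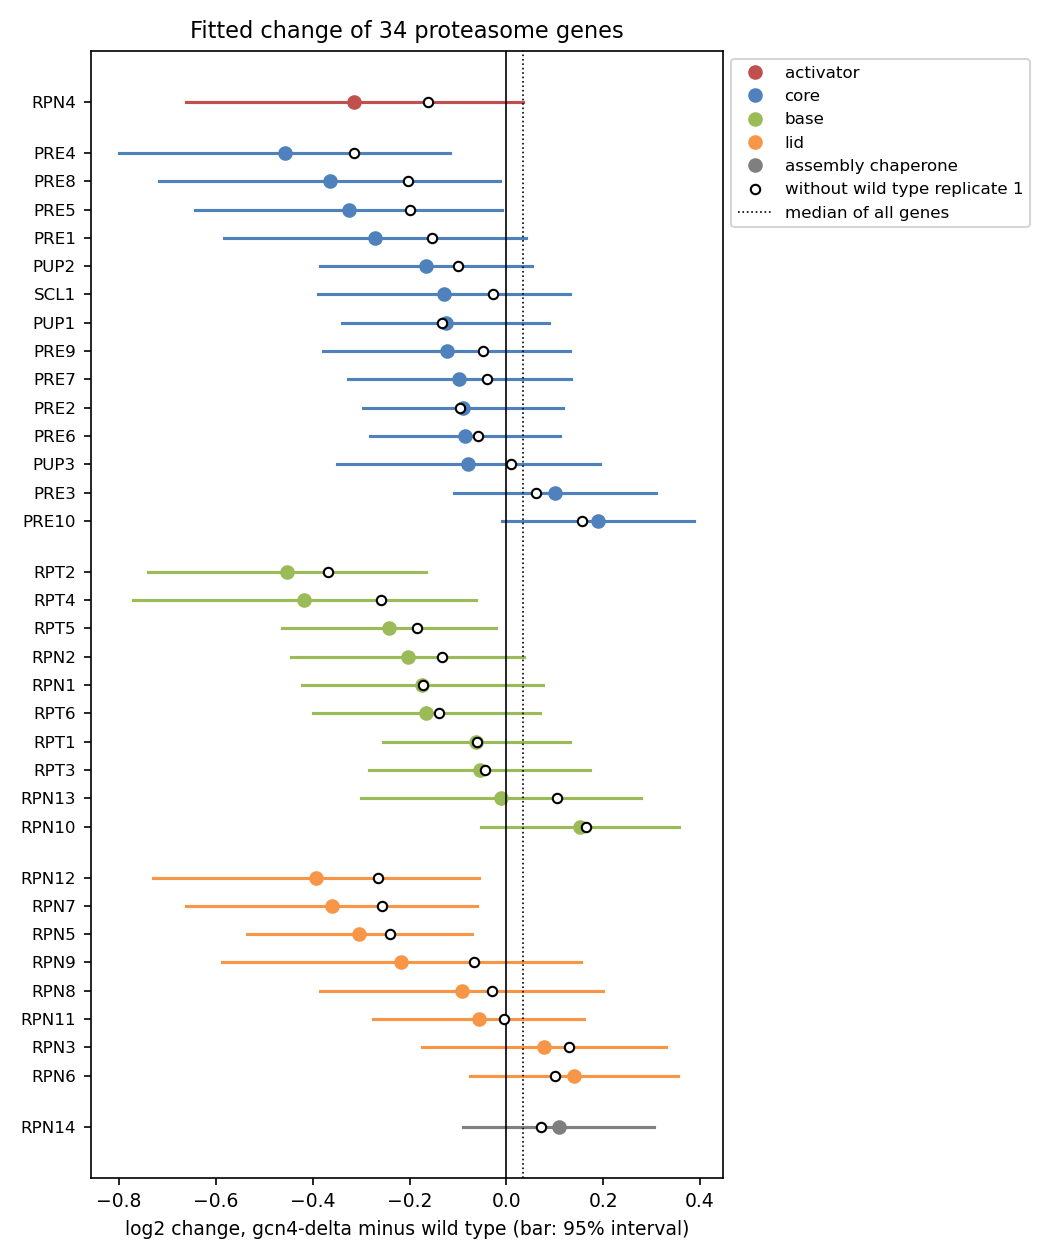
Fitted log2 change (gcn4-delta minus wild type) of the 34 proteasome genes, sorted within the activator, core, base, lid and RPN14. Filled points are the fit to 6 arrays, bars their 95% intervals, open points the fit without wild type replicate 1, the dotted line the median of all genes at 0.035. Filled points lie between -0.46 and 0.19, and most open points lie nearer 0 than their filled points.

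RPN4 (YDL020C), the activator, read 1691, 1568 and 1696 on gcn4-delta replicates 1, 2 and 3, against 2531, 1978 and 1726 on wild-type replicates 1, 2 and 3. All 3 gcn4-delta arrays were lower than all 3 wild-type arrays, but the gap to wild type replicate 3 was small and wild type replicate 1 was far above the rest. The means were 1651 ± 72.7 in gcn4-delta and 2078 ± 412 in the wild type (SD, n = 3 each). The log2 change was -0.31 ± 0.15 (SE, 95% interval -0.66 to 0.034) and did not pass (adjusted p = 0.213, limma). Without wild type replicate 1 it was -0.16 (adjusted p = 0.323, limma).

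Of the genes that control RPN4, 0 of 6 were called by limma, against 11.3% of all genes. At an unadjusted p under 0.05 PDR1 was lower and UBR2 higher, as were 12.3% and 16.4% of all genes. PDR1, PDR3, YAP1 and HSF1 encode transcription factors that act on the RPN4 promoter. Their log2 changes were -0.21, -0.21, -0.091 and -0.19 (adjusted p = 0.132, 0.233, 0.467 and 0.217, limma). PDR1 read 878, 884 and 919 on the gcn4-delta arrays and 1008, 1023 and 1068 on the wild-type arrays. The groups were apart and wild type replicate 1 was the lowest of its group here.

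UBR2 and MUB1 encode the ubiquitin ligase and its adaptor that mark Rpn4 protein for degradation. UBR2 was at 0.32 (adjusted p = 0.160, limma) and at 0.21 without wild type replicate 1. MUB1 was at -0.34 ± 0.35 (SE, adjusted p = 0.563, limma), and at -0.17 without that array. It read 347, 677 and 452 in gcn4-delta replicates 1, 2 and 3, against 757, 366 and 772 in wild-type replicates 1, 2 and 3. It was thus higher on gcn4-delta replicate 2 and wild-type replicates 1 and 3 than on the other 3 arrays, and the strains overlapped.

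**Figure D2:**
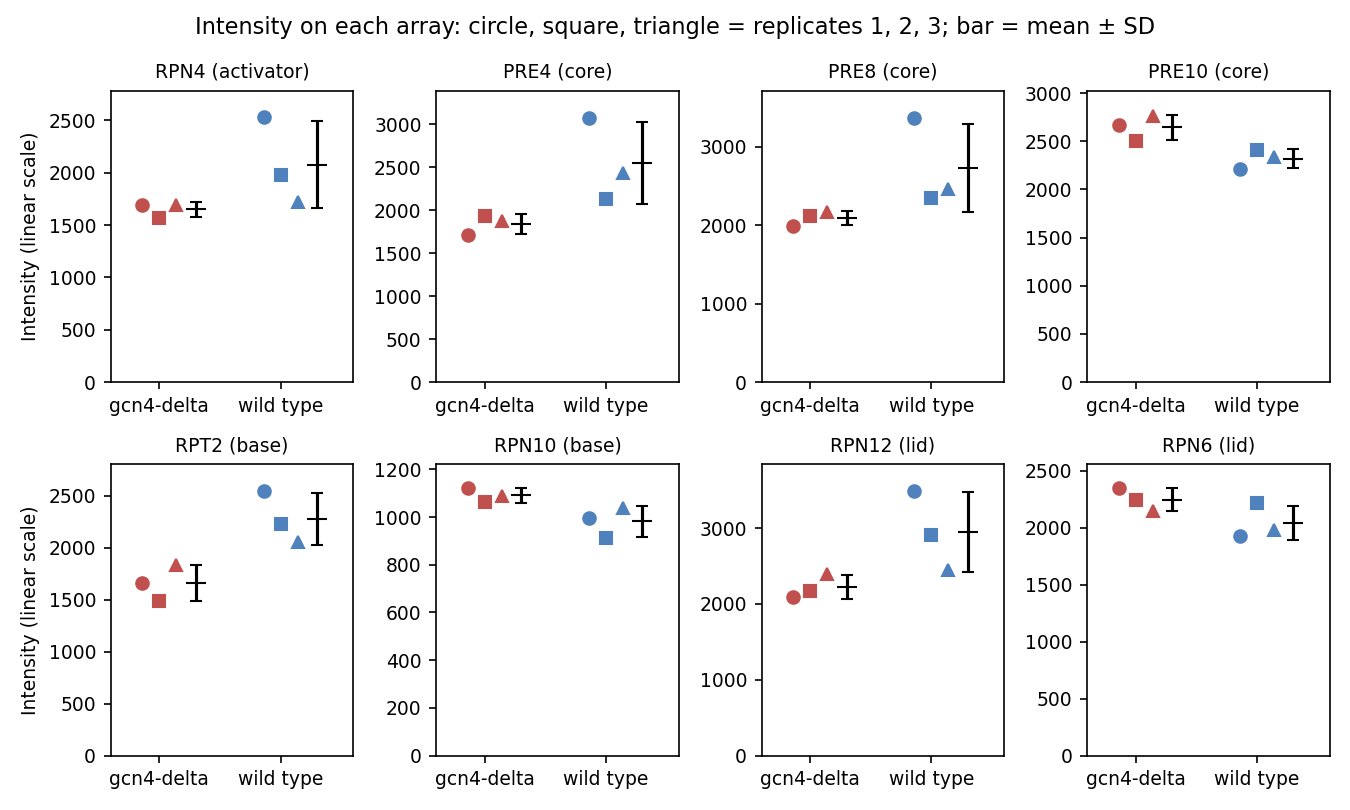
Intensity (linear scale, from 0) of RPN4 and 7 subunit genes on each array. Points are arrays, with gcn4-delta left and wild type right, and bars are means ± SD (n = 3 each). For RPN4, PRE4, PRE8, RPT2 and RPN12 wild type replicate 1 is the highest of the 6 arrays, whereas PRE10 and RPN10 read higher on all 3 gcn4-delta arrays.

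Of the 14 core genes 0 were called and 12 had values below 0, against 11.3% and 44.3% of all genes. The core median log2 change was -0.12 (range -0.46 to 0.19), and -0.078 without wild type replicate 1. The 7 alpha-ring genes had a median of -0.13 and the 7 beta-ring genes of -0.097, and without that array the order of the rings was the other way round, at -0.059 and -0.096.

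Among the alpha-ring genes, PRE8 read 1987, 2124 and 2169 in gcn4-delta replicates 1, 2 and 3, against 3375, 2347 and 2468 in wild-type replicates 1, 2 and 3. Strains did not overlap, yet wild type replicate 1 lay far above the other wild-type arrays, and the log2 change of -0.37 (adjusted p = 0.163, limma) was -0.20 without it. PRE5 had the next lowest value of the ring, at -0.33 (adjusted p = 0.166, limma), and -0.20 without that array. SCL1, PRE9, PRE6 and PUP2 had log2 changes of -0.13, -0.12, -0.086 and -0.17, and of -0.027, -0.049, -0.059 and -0.10 without wild type replicate 1. Of these 4 genes PUP2 alone had strains that did not overlap.

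PRE10, also of the alpha ring, read 2670, 2503 and 2761 on the gcn4-delta arrays, against 2212, 2407 and 2336 on the wild-type arrays. All gcn4-delta arrays were higher, by 0.19 on the log2 scale (95% interval -0.010 to 0.39, adjusted p = 0.194, limma). This was the highest value among the 34 members, and it was 0.16 without wild type replicate 1. PRE9 is the one core subunit that yeast can live without, and it read 1828, 1877 and 2071 on the gcn4-delta arrays, against 2321, 2105 and 1879 on the wild-type arrays, so the strains overlapped.

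The protease sites lie on PRE3, PUP1 and PRE2, whose products cut after acidic, basic and hydrophobic residues. PRE3 read 2647, 2462 and 2590 on the gcn4-delta arrays, against 2271, 2586 and 2334 on the wild-type arrays, a log2 change of 0.10. PUP1 and PRE2 were at -0.13 and -0.090. Strains overlapped on all 3 genes, and in none of them was wild type replicate 1 the highest array. Their values without that array were 0.062, -0.13 and -0.096.

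The other beta-ring genes, PRE4, PRE1, PRE7 and PUP3, encode subunits with no protease site. PRE4 read 1709, 1929 and 1873 in gcn4-delta replicates 1, 2 and 3, against 3072, 2136 and 2437 in wild-type replicates 1, 2 and 3. The strains did not overlap, and wild type replicate 1 was again far above the others. Its log2 change of -0.46 ± 0.14 (SE, 95% interval -0.80 to -0.12, adjusted p = 0.0918, limma) was the lowest of all members. It was -0.31 without wild type replicate 1, and leaving out wild type replicate 2 brought the gene past the threshold, at -0.58 (adjusted p = 0.04998, limma). PRE1, PRE7 and PUP3 were at -0.27, -0.097 and -0.078, with overlapping strains, and at -0.15, -0.039 and 0.0099 without wild type replicate 1.

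Of the 10 base genes 0 were called and 9 had values below 0, against 11.3% and 44.3% of all genes. The base median was -0.17 (range -0.45 to 0.15), and -0.14 without wild type replicate 1. All 6 ATPase genes, RPT1 to RPT6, had values below 0, from -0.45 to -0.055, and remained below 0 without that array, from -0.37 to -0.044. On all 6 ATPase genes gcn4-delta replicate 2 was the lowest of the 6 arrays, as it was for 16 of the 34 members and 21.4% of all genes. Without gcn4-delta replicate 2, RPT3 was at 0.0077, the other ATPase genes stayed below 0, and the base median was -0.11.

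RPT2, whose product opens the gate of the core, read 1663, 1485 and 1833 on the gcn4-delta arrays, against 2545, 2225 and 2051 on the wild-type arrays. The strains were clearly apart. The log2 change was -0.45 ± 0.12 (SE, 95% interval -0.74 to -0.17) with the lowest adjusted p among the members, 0.0592 (limma). It was -0.37 without wild type replicate 1 (adjusted p = 0.0869, limma). RPT2 passed after quantile normalization, median centring, a filter on the dimmest probe sets, trend and robust variances, or array weights, at -0.45 to -0.40.

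RPT4 read 2004, 1955 and 2191 in gcn4-delta replicates 1, 2 and 3, against 3407, 2556 and 2347 in wild-type replicates 1, 2 and 3. Its log2 change of -0.42 (adjusted p = 0.126, limma) was -0.26 without wild type replicate 1, the highest array. RPT5 was at -0.24 with strains apart, and RPT1, RPT3 and RPT6 were at -0.062, -0.055 and -0.17 with strains that overlapped.

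The scaffold genes RPN1 and RPN2 had log2 changes of -0.17 and -0.20, again with overlap, and RPN2 was at -0.13 without wild type replicate 1. The ubiquitin receptor gene RPN10 read 1121, 1061 and 1090 on the gcn4-delta arrays, against 997, 912 and 1039 on the wild-type arrays. All gcn4-delta arrays were higher, by 0.15 on the log2 scale (adjusted p = 0.289, limma), and by 0.16 without wild type replicate 1. RPN13, another ubiquitin receptor, read 1324, 1344 and 1418 on the gcn4-delta arrays, against 1614, 1327 and 1207 in wild-type replicates 1, 2 and 3. Its wild-type arrays spanned all of the gcn4-delta arrays, and its log2 change of -0.012 became 0.11 without wild type replicate 1.

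**Figure D3:**
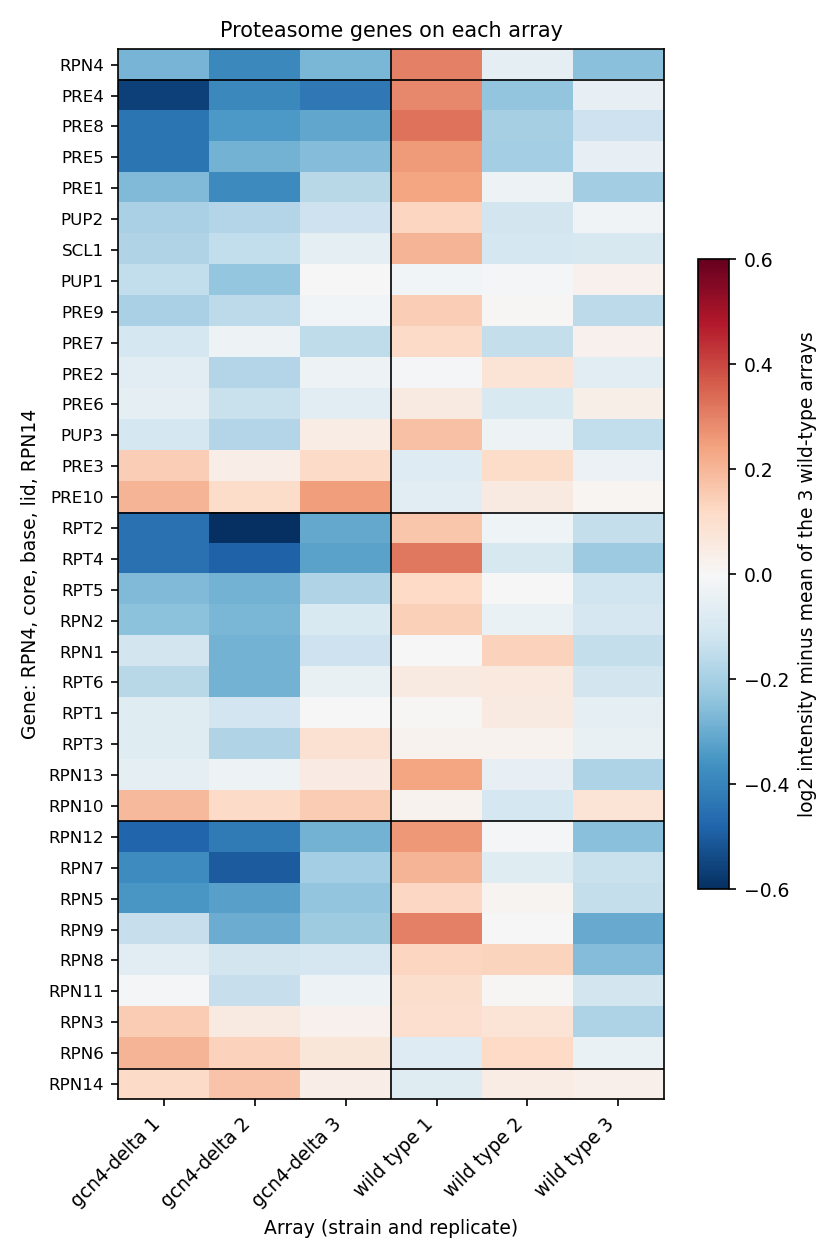
Each row is a proteasome gene and each column an array, with gcn4-delta left and wild type right. Colour gives log2 intensity minus the mean of the 3 wild-type arrays, blue for lower and red for higher. Wild type replicate 1 is red in most rows, and RPN4, PRE4, PRE8, PRE5, RPT2, RPT4, RPN12 and RPN7 are blue on all gcn4-delta arrays.

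Of the 8 lid genes 0 were called and 6 had values below 0, against 11.3% and 44.3% of all genes. The lid median was -0.15 (range -0.39 to 0.14). This median rested on single arrays: it was -0.0475 when wild type replicate 1 was left out and -0.29 when replicate 3 was. RPN12, whose product is the last to join the lid, read 2097, 2174 and 2399 on the gcn4-delta arrays, against 3488, 2905 and 2448 in wild-type replicates 1, 2 and 3. The strains did not overlap, though the highest gcn4-delta array came close to wild type replicate 3. Its log2 change was -0.39 (adjusted p = 0.127, limma), and -0.26 without wild type replicate 1.

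RPN7, a scaffolding subunit of the lid, read 1818, 1670 and 2048 on the gcn4-delta arrays, against 2724, 2248 and 2149 on the wild-type arrays, a log2 change of -0.36 (adjusted p = 0.120, limma). RPN5 read 2151, 2182 and 2326 on the gcn4-delta arrays, against 2984, 2773 and 2480 on the wild-type arrays, a log2 change of -0.30 (adjusted p = 0.0975, limma). Neither gene had overlapping strains, and without wild type replicate 1 they were at -0.26 and -0.24.

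RPN11, which encodes the deubiquitinase of the lid, was at -0.057 and RPN8, its partner subunit, at -0.092. RPN9 was at -0.22. Without wild type replicate 1 these values were -0.0053, -0.029 and -0.066. Values above 0 were found for RPN6 and RPN3. RPN6, whose product clamps the lid to the core, read 2347, 2246 and 2146 on the gcn4-delta arrays, against 1931, 2212 and 1981 on the wild-type arrays, and 1 wild-type array fell among the gcn4-delta arrays. Its log2 change was 0.14 (adjusted p = 0.351, limma). RPN3 read 1843, 1720 and 1686 on the gcn4-delta arrays, against 1780, 1757 and 1456 on the wild-type arrays, a log2 change of 0.077 (0.13 without wild type replicate 1), with strains that overlapped. SEM1, the small lid subunit outside the naming rule, was at 0.11 (adjusted p = 0.480, limma).

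Side by side, core, base and lid had medians of -0.12, -0.17 and -0.15. Between arrays of 1 strain the median of such a list varied with an SD of 0.090, 0.10 and 0.11 on the log2 scale. That SD includes shifts shared by the lists, as wild type replicate 1 was the highest array in each. It therefore does not measure the spread of differences between sub-complexes, which was not computed. Unadjusted p under 0.05 was reached by 3 genes of each: PRE4, PRE8 and PRE5 of the core, RPT2, RPT4 and RPT5 of the base, and RPN5, RPN7 and RPN12 of the lid. All 9 were lower in gcn4-delta, and 12.3% of all genes were lower at that threshold. No test between the sub-complexes was made.

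Relative to the mean of the wild-type arrays, the median core gene lay at -0.16, -0.18 and -0.064 on gcn4-delta replicates 1, 2 and 3, against 0.14, -0.060 and -0.048 on wild-type replicates 1, 2 and 3. The median base gene lay at -0.14, -0.28 and -0.070 on the gcn4-delta arrays, against 0.085, -0.012 and -0.12 on the wild-type arrays. For the lid these medians were -0.10, -0.22 and -0.15 on the gcn4-delta arrays, against 0.13, 0.012 and -0.16 on the wild-type arrays. In every sub-complex wild type replicate 1 was the highest array and wild type replicate 3 of the base and lid lay within the range of the gcn4-delta arrays. RPN4 showed the same placing of wild type replicate 1, at 0.30, against -0.053 and -0.25 on wild-type replicates 2 and 3. Over all genes the array medians stayed between -0.013 and 0.075.

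The median SD of the log2 values over the 34 members was 0.071 in gcn4-delta and 0.14 in the wild type, while over all genes it was 0.11 and 0.15. Wild type replicate 1 exceeded the mean of wild-type replicates 2 and 3 by a median of 0.19 over the 34 members, against 0.058 over all genes. The excess was 0.49 for PRE8, 0.48 for RPT4, 0.45 for RPN4, 0.45 for RPN9 and 0.43 for PRE4. It was close to 0 for PUP1, PRE2, RPT1 and RPN1, at -0.026, -0.020, 0.0075 and 0.0030. Wild type replicate 1 was lower than the other wild-type arrays for RPN6, PRE3, RPN14 and PRE10, at -0.12, -0.11, -0.11 and -0.10.

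RPN14 read 460, 479 and 437 on the gcn4-delta arrays, against 404, 439 and 434 on the wild-type arrays. Its log2 change was 0.11 (adjusted p = 0.430, limma), or 0.071 without wild type replicate 1, with strains that overlapped. Of 9 other measured assembly factors of the proteasome, 1 fell and 0 rose, a share close to the 11.3% of all genes called. Their median log2 change was 0.026, and -0.045 without wild type replicate 1. The gene that fell was ADD66, which encodes a chaperone of alpha-ring assembly. It read 722, 629 and 745 on the gcn4-delta arrays, against 926, 1016 and 882 on the wild-type arrays. The strains were well apart, with a fitted difference of -0.43 ± 0.10 on the log2 scale (SE, adjusted p = 0.0426, limma), but the call was lost when any 1 of the 6 arrays was left out (adjusted p = 0.0550 to 0.143, limma, log2 changes -0.48 to -0.36).

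PBA1, which encodes the binding partner of that chaperone, was at -0.34 (adjusted p = 0.117, limma). POC4, of the second alpha-ring chaperone pair, read 920, 878 and 1016 on the gcn4-delta arrays, against 778, 738 and 658 on the wild-type arrays. All gcn4-delta arrays were higher, at a log2 change of 0.37 (adjusted p = 0.0651, limma), and leaving out wild type replicate 1 brought it past the threshold, at 0.43 (adjusted p = 0.0466, limma). IRC25, the other gene of that pair, was at 0.032 (adjusted p = 0.879, limma), with strains that overlapped, and at 0.11 without that array. UMP1, whose product assembles the core and is its first substrate, was at 0.0017, and 0.061 without that array.

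Of 7 genes for proteins that associate with the proteasome, 0 were called, against 11.3% of all genes. At an unadjusted p under 0.05, 2 were lower and 0 higher, against 12.3% and 16.4% of all genes. Their median was -0.12, and -0.16 without wild type replicate 1. UBP6, the deubiquitinase that docks on the base, was at -0.29 (adjusted p = 0.147, limma), and -0.18 without wild type replicate 1. BLM10, an alternative activator of the core, was at 0.25 (adjusted p = 0.395, limma). BLM10 read 695 on wild type replicate 1, against 1013 to 1167 in gcn4-delta and 1066 and 1043 on the other wild-type arrays, and its log2 change was 0.046 without that array.

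Among 20 ubiquitin genes and conjugating enzymes and ligases, 2 fell and 0 rose, a share close to the 11.3% of all genes called. The other 18 were not called, and the list's median was -0.031, and -0.029 without wild type replicate 1. Values were above 0 for 10 genes and below 0 for 10, against 44.3% of all genes below 0. At an unadjusted p under 0.05, 2 were higher and 2 lower, against 16.4% and 12.3% of all genes. The 2 higher were HRD1 and UBC7, at 0.30 and 0.23 (adjusted p = 0.103 and 0.147, limma). The fall of UBC5, a ubiquitin-conjugating enzyme of stressed and stationary cells, was the largest change in all the proteasome and ubiquitin lists. UBC5 read 1091, 1249 and 975 on the gcn4-delta arrays, against 1764, 1896 and 2128 on the wild-type arrays. No gcn4-delta array came near a wild-type array. The log2 change was -0.81 ± 0.12 (SE, adjusted p = 0.00896, limma), or -0.87 without wild type replicate 1, and the call was lost without gcn4-delta replicate 1, where the change was -0.80 (adjusted p = 0.0501, limma). Its near-identical paralog UBC4 was at -0.26 (adjusted p = 0.262, limma), and -0.11 without wild type replicate 1. Whether the 2 probe sets share target RNA was not tested.

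SAN1, a nuclear quality-control ligase, read 751, 739 and 829 on the gcn4-delta arrays, against 1145, 1000 and 1071 on the wild-type arrays. The strains were apart, with a fitted difference of -0.47 ± 0.093 on the log2 scale (SE, adjusted p = 0.0230, limma). That call was lost without gcn4-delta replicate 1, gcn4-delta replicate 2 or wild type replicate 3 (adjusted p = 0.125, 0.0886 and 0.0677, limma), although the changes were then -0.45, -0.44 and -0.47. UBI4, the polyubiquitin gene, was at -0.071. It read 2783, 4185 and 2573 on gcn4-delta replicates 1, 2 and 3, against 3364, 2696 and 3829 on wild-type replicates 1, 2 and 3. Like MUB1, UBI4 was thus higher on gcn4-delta replicate 2 and wild-type replicates 1 and 3 than on the remaining arrays. RSP5, of the same list, was placed likewise, at 870, 1762 and 986 in gcn4-delta, against 1841, 932 and 1720 in the wild type. The cause was not tested. RAD6, the conjugating enzyme that acts with Ubr2, was at -0.31 (adjusted p = 0.197, limma), and -0.17 without wild type replicate 1.

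Of 11 genes for the segregase Cdc48, its cofactors and the shuttles that carry ubiquitylated proteins to the proteasome, 1 rose and 0 fell, a share close to the 11.3% of all genes called. The median was -0.12, and -0.069 without wild type replicate 1. OTU1, a deubiquitinase that works with Cdc48, read 435, 482 and 425 on the gcn4-delta arrays, against 341, 293 and 354 on the wild-type arrays. Its log2 change was 0.44 ± 0.11 (SE, adjusted p = 0.0420, limma). Without wild type replicate 1 the call held (0.47, adjusted p = 0.0475, limma), and it was lost when any 1 of the other 5 arrays was left out, with adjusted p up to 0.148. CDC48 itself read 5830, 5634 and 6058 on the gcn4-delta arrays, against 6836, 6737 and 6302 on the wild-type arrays, a log2 change of -0.18 (adjusted p = 0.196, limma).

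None of 16 deubiquitinase genes passed (limma), against 11.3% of all genes. At an unadjusted p under 0.05, 4 were higher and 0 lower, against 16.4% and 12.3% of all genes. The median was 0.059, and 0.14 without wild type replicate 1. UBP11 had the highest value, at 0.57 (adjusted p = 0.0604, limma), and read 607, 573 and 591 on the gcn4-delta arrays, against 320, 486 and 403 in wild-type replicates 1, 2 and 3. UBP11 was called when wild type replicate 2 was left out, at 0.72 (adjusted p = 0.0242, limma), and was at 0.42 when replicate 1 was. On 8 of the 16 genes wild type replicate 1 was the lowest of the 6 arrays, against 24.6% of all genes. The part of wild type replicate 1 in these values was not tested further.

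**Figure D4:**
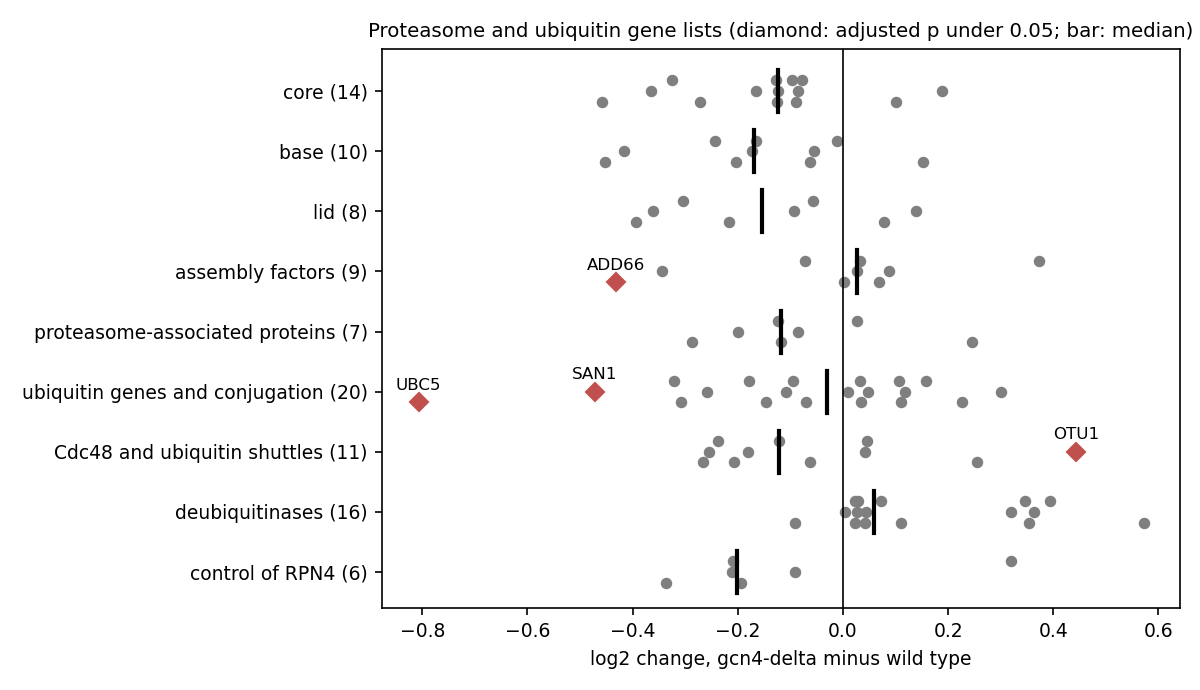
Log2 change (gcn4-delta minus wild type) of each gene in the proteasome sub-complexes and in 6 lists of related genes, with the number of genes measured in brackets. Diamonds passed at an adjusted p under 0.05 and circles did not, bars are medians, and vertical offsets within a list only separate points. The genes past the threshold are ADD66, UBC5, SAN1 and OTU1, and none lies in core, base or lid.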

How the data were processed

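RNA of yeast chemostat cultures was measured on 6 arrays, and the labels do not state whether each array had a culture of its own. The deposited values are linear intensity values, 1 per probe set and array, made by the authors. Per the submitters' processing notes RMA was used, in a version that the labels do not name. RMA sets the arrays of 1 run to a common distribution, which evens out any shift of most genes together. Whether the 6 arrays were summarised in 1 run is not stated. Of 10928 probe sets, 5498 matched S. cerevisiae genes through the platform annotation and the R64 reference table. They cover 5449 genes, each represented by its brightest probe set. The 95th percentile of 1746 named probe sets of other genes was the background level. Columns of other samples numbered 0.

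Log2 intensities were fitted in R 4.3.3 with the limma package, version 3.58.1 (lmFit, then eBayes, gcn4-delta minus wild type, no covariates, Benjamini-Hochberg over 5498 probe sets, threshold 0.05). The limma step was tested on simulated data. Array number limits precision. Figures used matplotlib 3.10.9 in Python 3.11.15. Members and lists were chosen with earlier results of these data known. All members could be named, with per-array values for RPN4 and, in core, base and lid, the 2 highest and 2 lowest. From other lists called genes, the 2 largest changes and set genes could be named. Of these SHP1 (-0.27, among the Cdc48 genes) and UBP13 (0.39, a deubiquitinase gene), neither called, were not described above. The genes UBC4, RAD6, PBA1, RSP5, HRD1, UBC7 and IRC25 were added after their values were seen. So were the per-array values of PRE9, RPN5, RPN14, PDR1, MUB1 and UBI4. Alternatives were the replicate block, leaving out each array, quantile normalization, median centring, filters on dim probe sets, trend and robust variances, array weights, the mean of probe sets and a threshold of 0.01.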

Additional observations from a re-analysis of the deposited data

How the results depend on the processing

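No proteasome gene was called higher under any alternative run, and with the replicate block, the background filter, the mean of probe sets and a threshold of 0.01 the number called lower was also 0. It was 1 after quantile normalization, median centring, removal of the dimmest 25% of probe sets, and trend and robust variances, in each case RPT2 (adjusted p = 0.0465, 0.0432, 0.0452 and 0.0410, limma). In those runs 12.1%, 12.0%, 13.0% and 12.3% of all genes were called in either direction. With the replicate block, the background filter and the mean of probe sets that share was 3.9%, 11.8% and 11.3%. Over omissions of 1 array 0 to 1 members were called lower, and 4.0% to 13.1% of all genes were called in either direction. With array weights 6 members were lower, namely PRE4, RPT2, RPT4, RPN5, RPN7 and RPN12, as were 11.3% of all genes. In either direction 1443 of all genes were then called, 26.5% of them. Those weights ran from 0.246 for wild type replicate 1 to 7.06 for gcn4-delta replicate 1, and their estimation stopped before convergence. The count over all genes, 618 in the fit to 6 arrays, was 224 at a threshold of 0.01, 210 with the replicate block and 220 to 713 over omissions of 1 array. Same-numbered arrays of the strains did not deviate together (r = -0.34, -0.38 and -0.22 over probe sets for replicates 1, 2 and 3), so the numbers were not taken as pairs. The highest such correlation, 0.555, was between gcn4-delta replicate 1 and wild type replicate 2. RPN4 was at -0.31 with the replicate block (adjusted p = 0.296, limma) and passed under no alternative, with values of -0.44 to -0.16 over omissions. The calls of UBC5, SAN1, ADD66 and OTU1 were lost with the block (adjusted p = 0.0556, 0.1075, 0.163 and 0.160, limma). Over omissions the core median was -0.17 to -0.078, the base median -0.23 to -0.11 and the lid median -0.29 to -0.0475. After quantile normalization these medians were -0.068, -0.11 and -0.11, and with array weights -0.12, -0.16 and -0.072. Values near 0 changed sign: RPN13 (0.0175 after quantile normalization, 0.027 with array weights, -0.10 to 0.11 over omissions), RPN11 (0.0062 with array weights), PUP3 (-0.15 to 0.0099 over omissions), RPT3 (-0.13 to 0.0077), RPN3 (-0.016 to 0.13), UMP1 (-0.11 to 0.061) and UBI4 (-0.29 to 0.065). The causes were not tested.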
